A study of Mus musculus with 18 samples.

Results

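Open chromatin around Klf2 and Klf4 was followed in mouse embryonic stem (ES) cells, using ATAC-seq peaks that fall in a pair of fixed windows of the mm9 genome. ATAC-seq marks accessible DNA with a transposase that cuts it and adds sequencing adapters, and peaks of the resulting reads mark open sites. The Klf2 window was chr8:74815000-74870000 (55 kb), with the gene near 74.843 to 74.846 Mb. The Klf4 window was chr4:55450000-55560000 (110 kb), with the gene near 55.54 to 55.545 Mb and its distal elements at lower coordinates. All peaks overlapping a window were taken and merged over the 18 peak lists wherever they shared 1 bp or more. This gave 50 regions, 13 in the Klf2 window and 37 in the Klf4 window, out of 377189 regions in the whole series. They hold 325 of the 1651188 deposited peaks.

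KLF2 and KLF4 are zinc-finger transcription factors that bind GC-rich and CACCC-type sequences and help to hold ES cells in the naive pluripotent state, together with KLF5, OCT4, SOX2, NANOG and ESRRB. Klf4 is a well-known target of LIF and STAT3 signalling, and KLF2 protein is destabilised by ERK signalling. Klf4 is also known for distal enhancers that lie well downstream of the gene in mouse ES cells. BRG1, encoded by Smarca4, is the ATPase of the BAF chromatin remodelling complex of ES cells, and BAF53A is an actin-related subunit of it. TOP2 enzymes pass one DNA duplex through another to relieve tangles and supercoils, and ICRF-193 blocks their catalytic cycle.

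The perturbed cells were of 4 kinds, each with its own controls. Brg1 fl/fl; Actin-CreER cells were kept for 24 h in 0.8 µM tamoxifen, or in ethanol, before 48 h in fresh medium (2 libraries per group). Baf53a fl/-; Actin-CreER cells were handled in the same way (2 libraries per group), and their ethanol controls carry only 1 intact allele. Wild-type cells received 1 µM ICRF-193 or DMSO for 24 h (2 libraries per group) or for 1 h (3 libraries per group). The 1 h groups follow the sample titles and the series design, while the treatment protocol names 24 h throughout. All cells were grown in serum with LIF, and in both deletion lines Cre is fused to an estrogen receptor domain and driven by an Actin promoter, so that tamoxifen releases it. The replicates are passages, so that the p-values refer to variation among passages, part of which may be technical. In bulk samples of this kind, fewer cells with an open site and a less open site in each cell cannot be told apart.

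The lists held 46431 to 129880 peaks, and no read counts came with them, so that depth is unknown. The shortest was tamoxifen replicate 2 of the Brg1 line, with 46431 peaks, followed by replicate 2 of the 1 h ICRF-193 group (50611 peaks) and replicate 2 of the 1 h DMSO group (58532 peaks). The other 15 lists held 76898 or more. Each peak carries a score set by the authors, without a stated unit, and it was used only to rank peaks within a list. A list percentile below is the percentile of a region's best peak score in its own list. Because lists differ in length, changes were tested on a second scale, the shared rank, which is a region's percentile by score among the 18061 regions that hold a peak in all 18 lists. ES cell identity and the deleted genes were not checked at their loci, since no gene annotation of the mm9 build was used here.

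The promoters are shown first because every list held a peak at or just upstream of the start of both genes. RefSeq sequence of build GRCm38.p6 was used, a different build from that of the peaks. Both symbols matched its promoter table. The 250 bases before each gene start are printed 5′ to 3′ on the strand of the gene, with motif matches in capitals. The Klf2 stretch is chr8:72318812-72319061 on the plus strand and the Klf4 stretch is chr4:55532476-55532725 on the minus strand.
Klf2 promoter: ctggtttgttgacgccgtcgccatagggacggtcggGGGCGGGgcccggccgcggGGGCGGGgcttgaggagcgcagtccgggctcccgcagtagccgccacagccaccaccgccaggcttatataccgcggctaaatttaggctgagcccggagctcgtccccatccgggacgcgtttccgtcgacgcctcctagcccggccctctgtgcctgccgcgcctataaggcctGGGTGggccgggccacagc
Klf4 promoter: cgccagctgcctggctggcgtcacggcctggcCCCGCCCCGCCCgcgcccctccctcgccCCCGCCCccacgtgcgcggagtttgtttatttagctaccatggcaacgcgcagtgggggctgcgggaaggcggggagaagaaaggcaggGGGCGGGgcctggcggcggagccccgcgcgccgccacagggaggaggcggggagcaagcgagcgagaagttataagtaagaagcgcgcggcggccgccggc

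On both strands, 4 motifs were searched: CACCC (the core read by KLF factors), GGGCGGG (the GC box read by SP and KLF factors), CCAAT (the box read by NF-Y) and, for the TATA box, TATAAA. The window searched ran from 250 bases before to 50 bases after the gene start, for these genes and for 32851 promoters of the same length. Klf4 held 4 GGGCGGG matches, at -218, -213, -190 and -101 from the gene start, and those at -218 and -213 share letters. Klf2 held 2, at -214 and -195, and 1 CACCC match on the opposite strand at -19. Neither promoter held CCAAT, and neither held TATAAA. Of all promoters searched, 25.6% held GGGCGGG, 57.5% held CACCC, 37.4% held CCAAT and 13.6% held TATAAA. Both promoters were rich in G and C, with 74.3% for Klf4 and 69.3% for Klf2 against a median of 52.7%. The number of CpG dinucleotides was 40 in Klf4 and 32 in Klf2, against a median of 7. A GC content as high as that of Klf4 was reached by 4.44% of promoters, and one as high as that of Klf2 by 10.5%. A match describes letters and is not evidence of binding.

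Most of the recurrent open chromatin of both windows lay at the gene start or at a few separate sites outside the gene. Of the 50 regions, 8 held a peak in all 18 lists, 3 around Klf2 and 5 around Klf4. That is 16.0% of the regions of both windows, against 4.79% of all regions. Another 5 were found in 10 to 17 lists, 12 in 2 to 9 lists, and 25 in a single list. The single-list share was 50.0% in the windows and 54.9% over all regions. Regions found in all 18 lists had a median width of 902 bp in the windows and 915 bp genome-wide, and those found in 1 list had medians of 135 bp in the windows and 138 bp genome-wide. In width the stable sites of both loci were close to stable sites elsewhere.

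**Figure D1:**
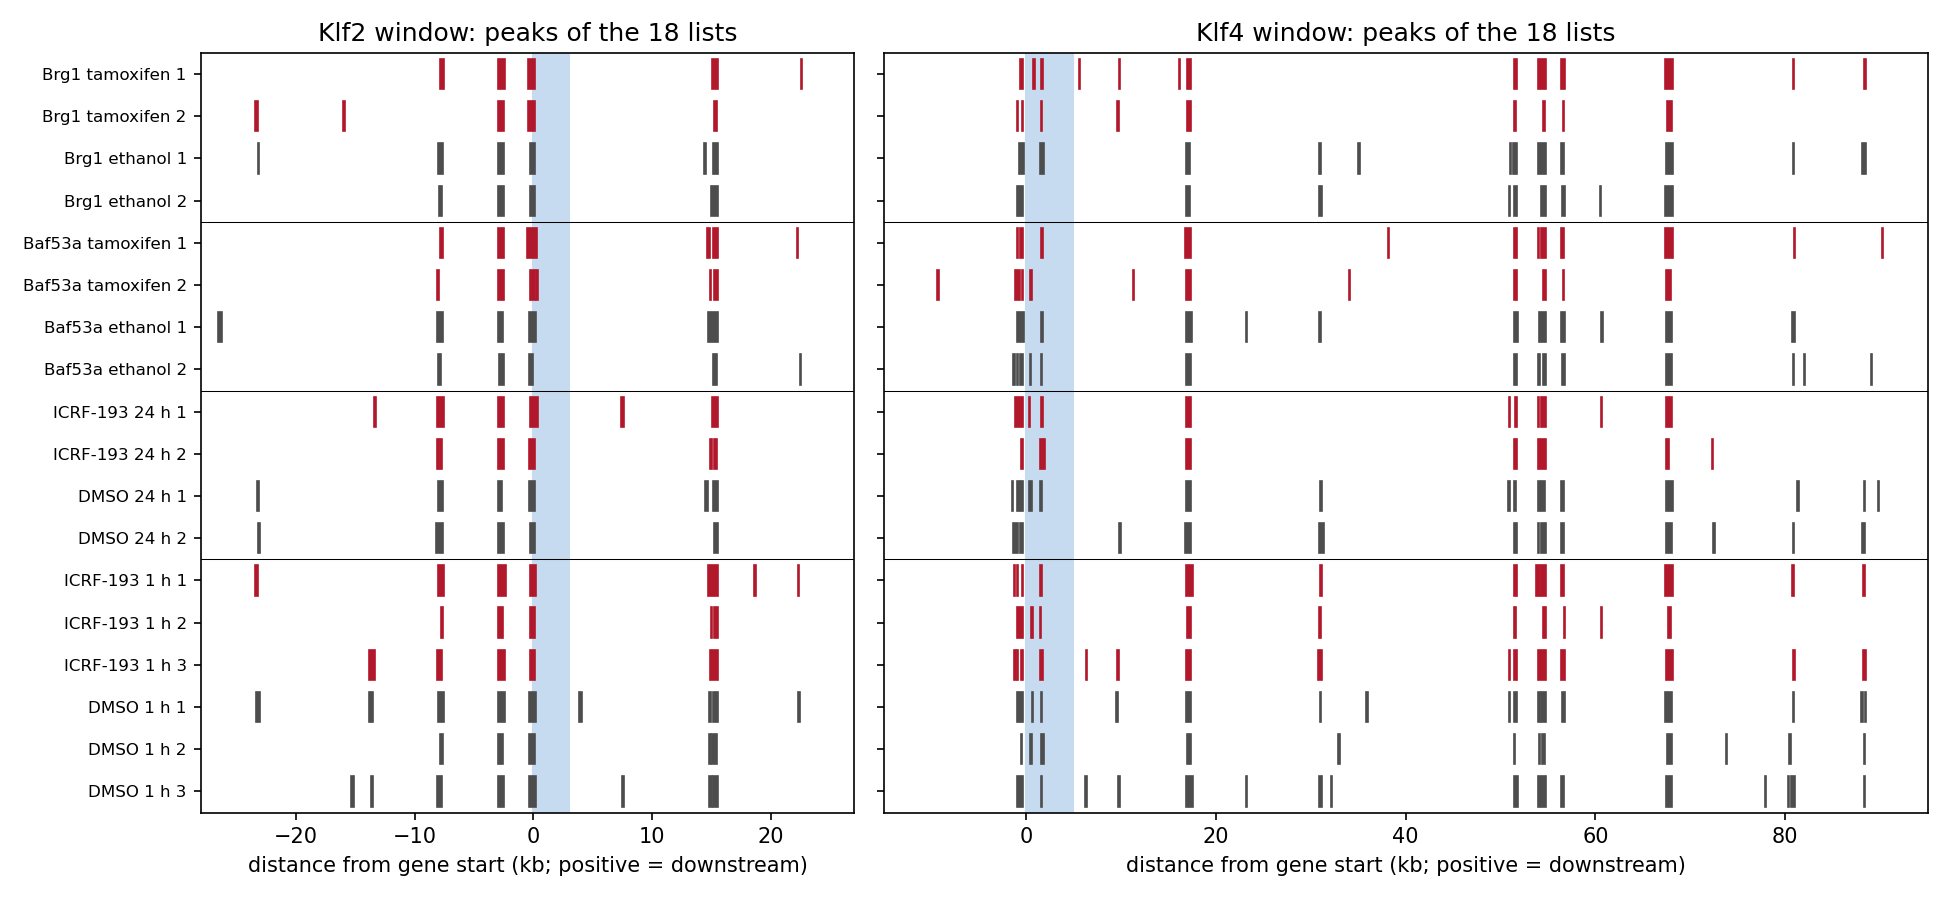
Peaks of the 18 lists in the Klf2 window (left) and the Klf4 window (right). Each row is a library, the x axis is the distance from the gene start in kb (positive is downstream), red marks tamoxifen or ICRF-193, grey marks ethanol or DMSO, and the blue band is the gene. The 8 columns of peaks that run through every row are the regions with a peak in all 18 lists, and the Klf4 column at 31 kb is missing from every red row of the upper 3 blocks.

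Around Klf2, the site at the gene start had the highest mean shared rank of the stable Klf2 sites in all 8 groups. The region chr8:74842469-74843367 covers the approximate start used here, and its list percentile ranged from 79.1 to 97.3 with a mean of 91.8. In Brg1 tamoxifen cells its shared rank was 77.9 and 87.2, against 77.5 and 50.5 in Brg1 ethanol cells. It was 69.7 and 75.1 in Baf53a tamoxifen cells, against 55.9 and 63.2 in Baf53a ethanol cells. Both deletions thus stood above their controls in every library, with a mean difference of 18.6 rank points for Brg1 and 12.9 for Baf53a. A comparison of 2 libraries against 2 allows no exact permutation p below 0.3333, and that was the p in both cases (two-sided). Here and below, any groups of 2 that do not overlap give this p, so that a lack of overlap alone carries little weight. The limma test gave an adjusted p of 0.6063 for Brg1 and 0.941 for Baf53a.

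With ICRF-193 the Klf2 start showed wide spread between replicates. After 24 h of ICRF-193 the shared rank was 51.7 and 87.4, against 31.1 and 83.0 after 24 h of DMSO. It was 70.2, 51.1 and 65.9 after 1 h of ICRF-193, against 46.3, 80.7 and 67.2 after 1 h of DMSO. The groups overlapped at both times. No difference at the start of Klf2 passed the limma test in any of the 4 comparisons.

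A second stable Klf2 site lay 3 kb upstream of the gene start, at chr8:74839997-74840663, with list percentiles of 50.1 to 92.1. Its shared rank was 20.6 and 7.9 after 24 h of ICRF-193, against 45.1 and 45.6 after 24 h of DMSO. The groups did not overlap, and the ICRF-193 mean was 14.2 ± 9.0 against 45.4 ± 0.4 with DMSO (SD, n = 2 each; two-sided exact permutation p = 0.3333, the smallest possible). On the normal scores used by limma (the rank turned into a standard normal value), the difference was -1.0 ± 0.48 (SE), with an unadjusted p of 0.04625 and a Benjamini-Hochberg adjusted p of 0.5414. It did not pass the threshold of 0.05. After 1 h the ranks were 24.0, 45 and 34.6 with ICRF-193, against 6.1, 56.7 and 19.9 with DMSO, and the groups overlapped.

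In the deletion lines the upstream Klf2 site overlapped between groups. Brg1 tamoxifen cells had shared ranks of 64.3 and 34.5, against 53.5 and 35.6 in Brg1 ethanol cells. It was 28.8 and 52.1 in Baf53a tamoxifen cells, against 39.0 and 39.4 in Baf53a ethanol cells. The bases under peaks did not fall with the rank after 24 h of ICRF-193: they were 472 and 461 with ICRF-193, against 331 and 462 with DMSO.

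The third stable Klf2 site lay 15 kb downstream, at chr8:74857370-74858581, with list percentiles of 54.7 to 91.8. After 24 h its shared rank was 13 and 35.1 with ICRF-193, against 61.1 and 48.6 with DMSO. In the Brg1 line it was 45.4 and 20.3 with tamoxifen, against 57.2 and 47.7 with ethanol. The groups did not overlap in either comparison, and neither passed the limma test (adjusted p = 0.6123 for ICRF-193 at 24 h and 0.6918 for Brg1 deletion). In the Baf53a line the ranks were 52.7 and 19.3 with tamoxifen, against 57.7 and 12.7 with ethanol. After 1 h they were 41.8, 19.7 and 54.5 with ICRF-193, against 14.7, 42.8 and 31.5 with DMSO, so that both of these pairs of groups overlapped.

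Other Klf2 sites were weaker or rarer. A region 8 kb upstream, chr8:74834768-74835471, held a peak in 17 lists and was missing only from tamoxifen replicate 2 of the Brg1 line, the shortest list. Its list percentile ran from 15.6 to 82.3. Just beyond the approximate gene interval used here, chr8:74846825-74847060 held a peak in 1 list at percentile 20.1. The other 8 Klf2 regions were found in 1 to 6 lists.

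**Figure D2:**
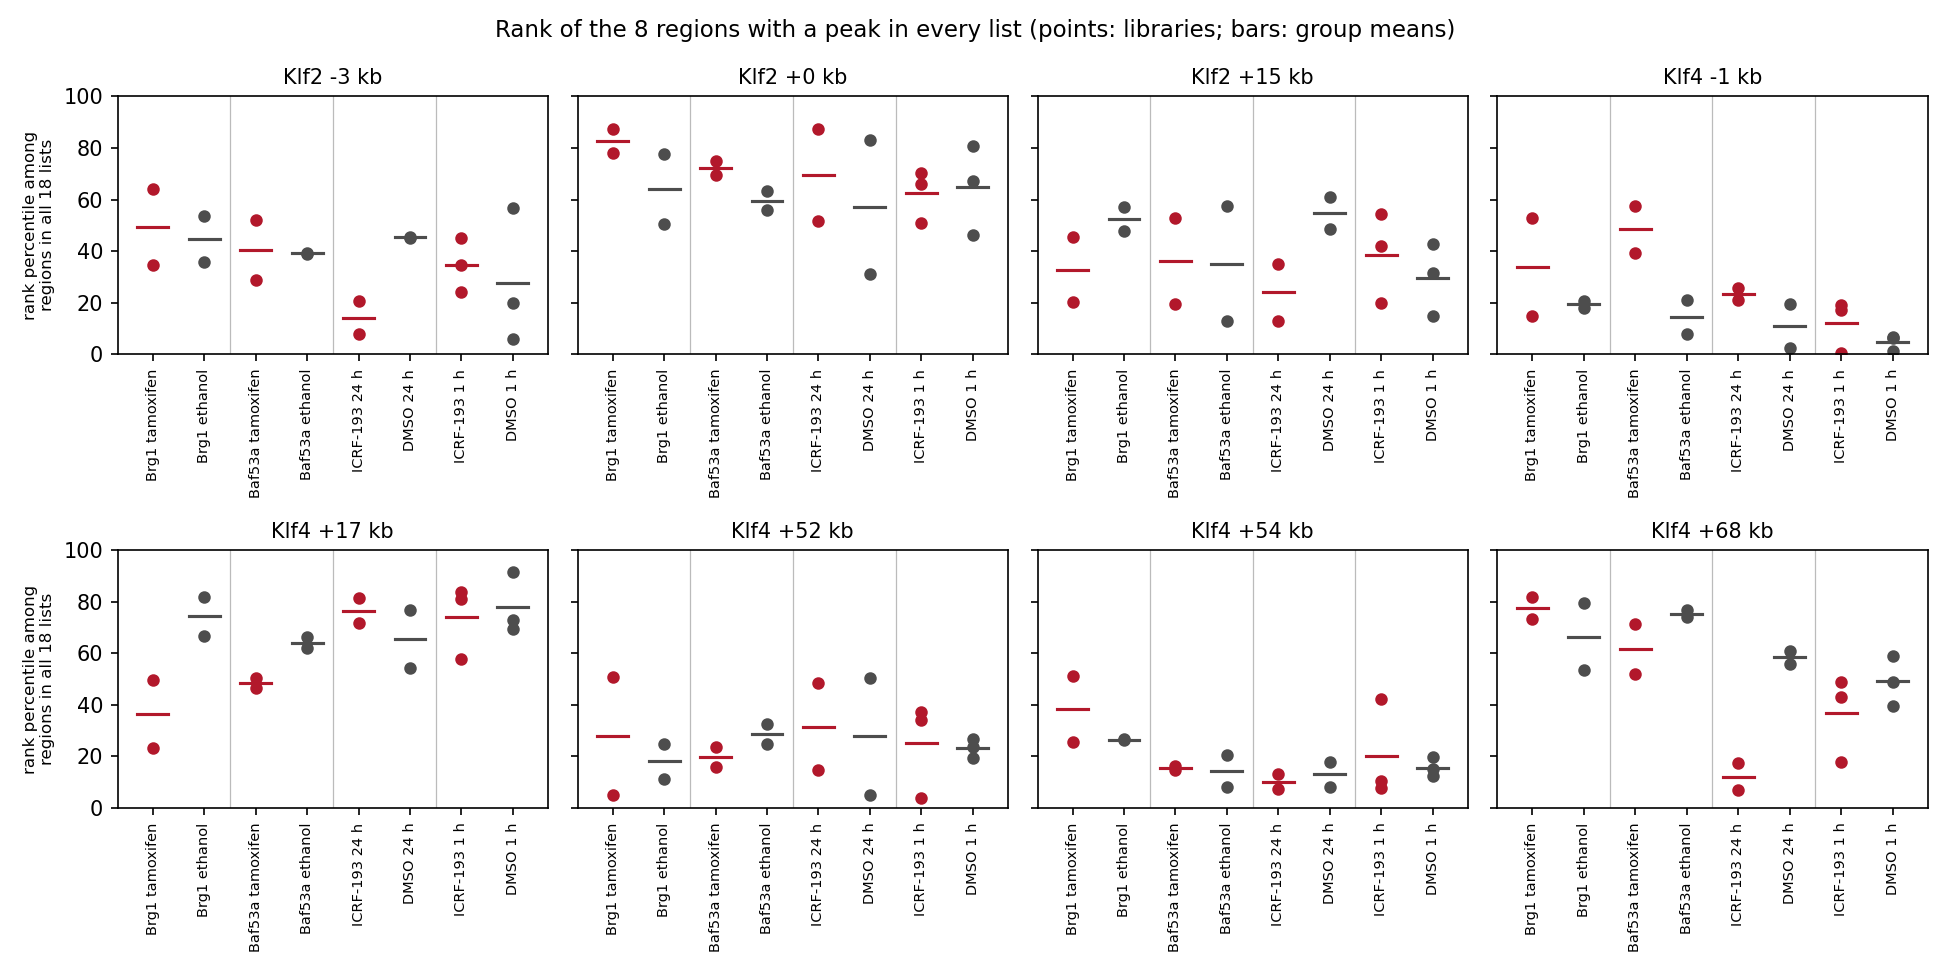
Shared rank (y axis, percentile among the 18061 regions with a peak in all 18 lists) of the 8 stable regions, named by gene and distance from its start. Points are libraries, bars are group means, red marks tamoxifen or ICRF-193 and grey marks ethanol or DMSO. The widest gaps between groups are at Klf4 +17 kb for Brg1 deletion (mean of 36.3 with tamoxifen and 74.4 with ethanol) and at Klf4 +68 kb for ICRF-193 at 24 h (mean of 12.2 with ICRF-193 and 58.4 with DMSO).

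At Klf4 the site at the gene start was open in all 18 lists and had the lowest mean list percentile of the 5 stable Klf4 sites, 66.6, with a range of 16.5 to 90.4. Its mean shared rank over the 18 libraries was 19.6, close to the 19.0 of the site at 54 kb. The region, chr4:55545162-55546459, lies just upstream of the approximate start used here (55.545 Mb). Baf53a tamoxifen cells had shared ranks there of 57.5 and 39.4, against 21.2 and 7.7 in Baf53a ethanol cells. These groups did not overlap, and the normal-score difference was 1.07 ± 0.57 (SE; limma unadjusted p = 0.07066, adjusted p = 0.7392). In the Brg1 line the rank was 14.7 and 53.0 with tamoxifen, against 18.1 and 20.8 with ethanol, and the groups overlapped.

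In wild-type cells the Klf4 start had low ranks with and without ICRF-193. Its shared rank was 25.7 and 21.1 after 24 h of ICRF-193, against 2.6 and 19.4 after 24 h of DMSO, groups that did not overlap (limma adjusted p = 0.7721). After 1 h it was 0.4, 17.2 and 19.1 with ICRF-193, against 6.7, 1.3 and 6.2 with DMSO, and the groups overlapped. The start was at a shared rank of 25.7 or less in all 10 ICRF-193 and DMSO libraries.

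Inside or next to the Klf4 gene, further peaks were weaker. A region 2 kb into the gene, chr4:55542992-55543570, held a peak in 15 lists at list percentiles of 13.4 to 69.5. It was missing from ethanol replicate 2 of the Brg1 line, tamoxifen replicate 2 of the Baf53a line and DMSO replicate 2 of the 24 h group. A neighbour 1 kb into the gene, chr4:55544270-55544728, held a peak in 7 lists. The other 3 regions at the gene, chr4:55538571-55538768, chr4:55539313-55539447 and chr4:55544026-55544243, held a peak in 1 or 2 lists. None of them was lost or gained in a comparison.

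A strong Klf4 site lay 17 kb downstream of the gene start, at chr4:55527424-55528222, with list percentiles of 77.5 to 98.7. Its mean shared rank over the 18 libraries was the highest of the Klf4 sites (66.0). The site at 68 kb stood above it in Brg1 tamoxifen (mean 77.7 against 36.3), Baf53a tamoxifen (61.6 against 48.4) and Baf53a ethanol cells (75.4 against 64.1). At 17 kb the shared rank was 23.1 and 49.5 in Brg1 tamoxifen cells, against 82.0 and 66.7 in Brg1 ethanol cells. Both tamoxifen libraries were below both ethanol libraries, and the tamoxifen mean was 36.3 ± 18.7 against 74.4 ± 10.8 with ethanol (SD, n = 2 each; two-sided exact permutation p = 0.3333, the smallest possible). The normal-score difference was -1.05 ± 0.39 (SE), with a limma unadjusted p of 0.0101 and an adjusted p of 0.1548, so that it did not pass the threshold. The peak was narrower, with 424 and 370 bases in tamoxifen cells, against 508 and 495 in ethanol cells. Without tamoxifen replicate 2, the shortest list, the difference was -1.41 ± 0.47 (limma adjusted p = 0.1751), and without tamoxifen replicate 1 it was -0.69 ± 0.46 (adjusted p = 0.5514). With list length as a covariate it was -0.88 ± 0.41 (limma adjusted p = 0.3738). Peak width did not follow rank everywhere. At the Klf4 start, Brg1 tamoxifen peaks covered a mean of 302.5 bases against 513.5 with ethanol, while mean shared ranks were 33.8 and 19.5. At 17 kb the mean was 497.5 bases after 24 h of ICRF-193 against 607.5 with DMSO, while mean ranks were 76.6 and 65.8.

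In the Baf53a line the same site stood at 50.3 and 46.5 with tamoxifen, against 61.9 and 66.3 with ethanol. The groups did not overlap, and the normal-score difference was -0.40 ± 0.39 (SE; limma adjusted p = 0.9117). The difference between the Brg1 and Baf53a effects was -0.65 ± 0.55 (SE; limma adjusted p = 0.9007), so that they were not shown to differ. In all 10 ICRF-193 and DMSO libraries the site stood at 54.5 or more. Its shared rank was 71.8 and 81.4 after 24 h of ICRF-193, against 54.5 and 77.0 after 24 h of DMSO. After 1 h it was 81.2, 57.7 and 83.9 with ICRF-193, against 91.4, 69.6 and 73.1 with DMSO, and the groups overlapped at both times.

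Another stable Klf4 site lay farther downstream, at 68 kb. The region chr4:55476767-55477671 had list percentiles of 60.0 to 96.1 and was a single peak in every list. Its shared rank was 7.0 and 17.3 after 24 h of ICRF-193, against 55.8 and 61.0 after 24 h of DMSO. The groups were far apart, with means of 12.2 ± 7.3 with ICRF-193 and 58.4 ± 3.7 with DMSO (SD, n = 2 each; two-sided exact permutation p = 0.3333, the smallest possible). The normal-score difference was -1.42 ± 0.41 (SE), with a limma unadjusted p of 0.001269 and an adjusted p of 0.1786, which did not pass the threshold. The peak covered 572 and 378 bases with ICRF-193, against 721 and 596 with DMSO.

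After 1 h of ICRF-193 the 68 kb site overlapped with its control, at shared ranks of 48.9, 43.2 and 18 with ICRF-193, against 49.0, 59.0 and 39.4 with DMSO. The difference between the 24 h and 1 h effects was -1.07 ± 0.52 (SE), with a limma unadjusted p of 0.0482 and an adjusted p of 0.7194. It was therefore not shown that the effect differed with time. In the Brg1 line the ranks were 81.9 and 73.5 with tamoxifen, against 79.4 and 53.5 with ethanol, and the groups overlapped. In the Baf53a line they were 71.4 and 51.8 with tamoxifen, against 76.7 and 74.2 with ethanol. Here the groups did not overlap (limma adjusted p = 0.9197). The 68 kb site had its lowest ranks in the ICRF-193 libraries of 24 h, and the 17 kb site in tamoxifen replicate 1 of the Brg1 line. The sites were not tested against each other.

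A pair of stable sites lay between them, at 52 and 54 kb. The region chr4:55493117-55493651, at 52 kb, had shared ranks of 5.2 and 50.7 in Brg1 tamoxifen cells, against 11.4 and 24.9 in Brg1 ethanol cells. After 24 h it stood at 14.7 and 48.4 with ICRF-193, against 50.5 and 5.2 with DMSO. In both comparisons, replicates of one group were farther apart than the group means. The Baf53a groups did not overlap at 52 kb, with 15.9 and 23.7 for tamoxifen against 24.8 and 32.5 for ethanol (limma adjusted p = 0.9725). The region chr4:55490192-55491264, at 54 kb, stood at 25.6 and 51.4 in Brg1 tamoxifen cells, against 26.3 and 26.6 in Brg1 ethanol cells, and at 7.4 and 13 after 24 h of ICRF-193, against 8.3 and 17.8 after 24 h of DMSO. Over the 4 comparisons, the limma adjusted p of these sites was 0.8399 or more.

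Over all 18061 shared regions, limma called 680 for Brg1 deletion (3.77%), 649 of them lower and 31 higher in tamoxifen cells. It called 1 for Baf53a deletion (0.00554%), 17 for ICRF-193 at 24 h (0.0941%) and 0 for ICRF-193 at 1 h (0%), where 999 had an unadjusted p under 0.05. None of the 8 stable regions of Klf2 and Klf4 was called in any of these comparisons. Nor was any called for the difference between Brg1 and Baf53a deletion (35 of all regions, 0.194%) or between 24 h and 1 h of ICRF-193 (1 of all regions, 0.00554%). Without adjustment, 2504 of all 18061 regions had a limma p under 0.05 for Brg1 deletion, and 1286 for Baf53a deletion. There were 1633 for ICRF-193 at 24 h, 1293 for Brg1 minus Baf53a and 1249 for 24 h minus 1 h. Of the 48 fits for these 8 regions, 5 had an unadjusted p under 0.05, a count that was not tested against those shares. They were the 3 described above and the 24 h minus 1 h differences at Klf4 +68 kb and Klf2 -3 kb. The difference at Klf2 -3 kb was -1.33 ± 0.63 (SE; limma adjusted p = 0.7003).

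Weaker sites were missing from some lists, so they were compared mainly by whether a list held them. In fits limited to the lists of 1 comparison, 3 of them could be ranked, in 6 fits, and limma called none. A region is called lost where every control list holds a peak and no perturbed list does, and gained in the reverse case. For Brg1 deletion, 2 of the 12 regions shared by the controls were lost, against 23.9% of all control-shared regions. For Baf53a deletion 0 of 12 were lost, against 11.2%. For ICRF-193 at 24 h 4 of 13 were lost, against 15.5%, and at 1 h 0 of 11, against 2.28%. With 11 to 13 regions per comparison these shares rest on few regions, and no test was made of them.

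**Figure D3:**
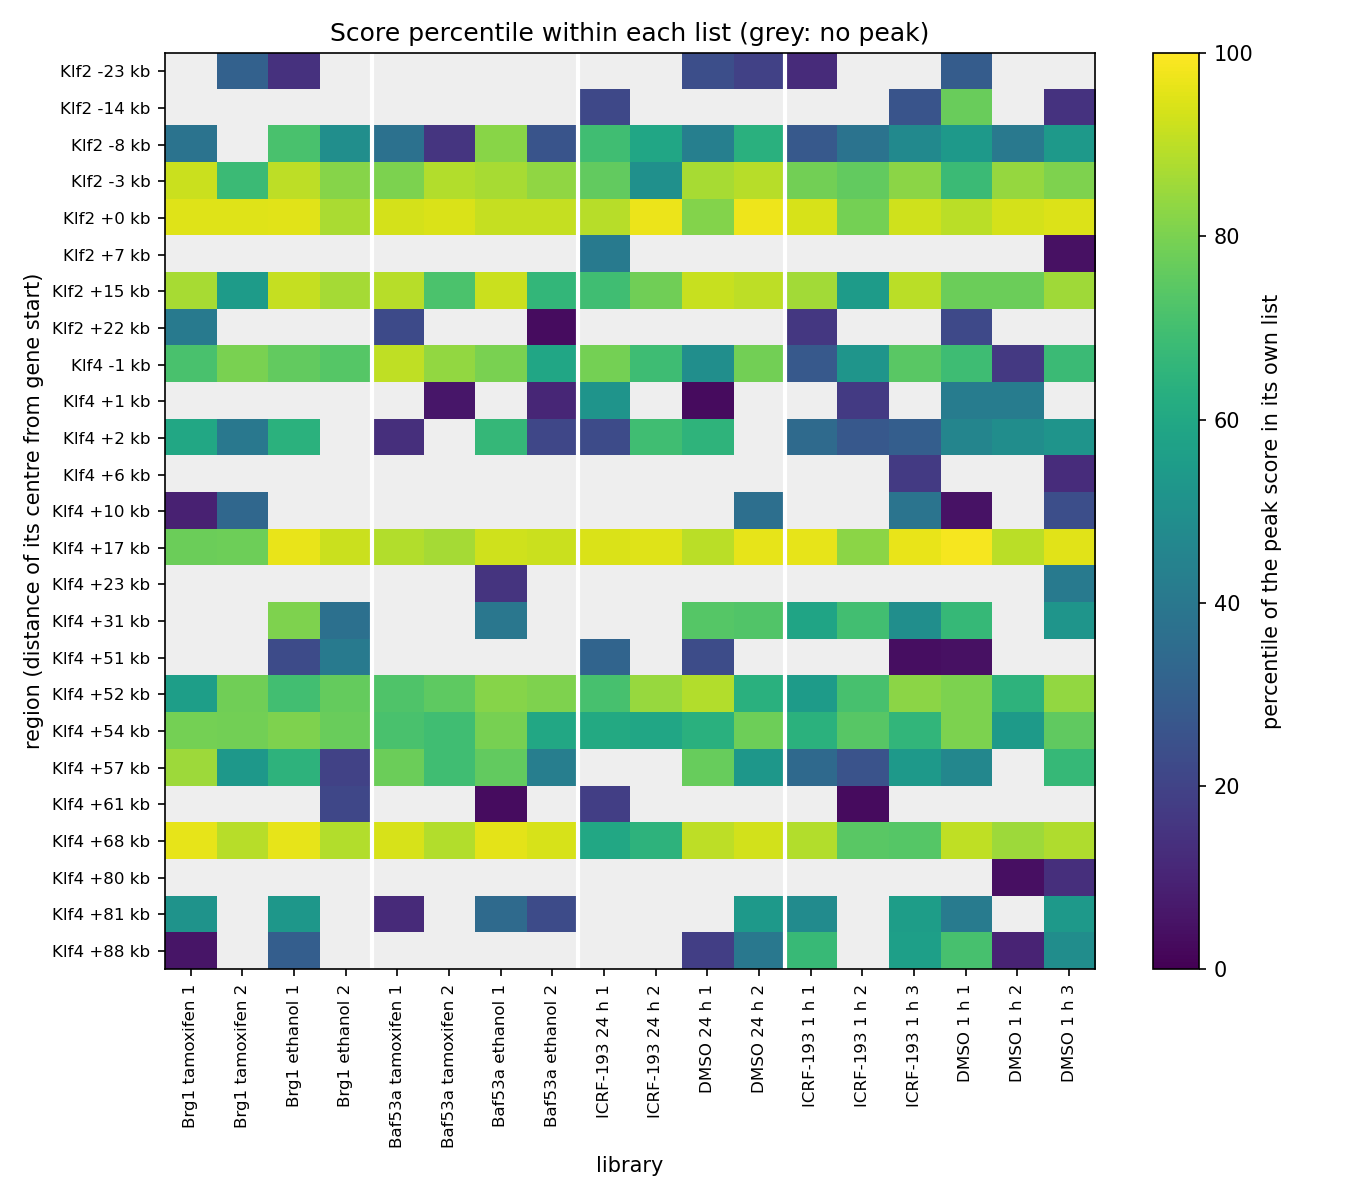
List percentile of the peak score (colour) for regions found in 2 or more lists, by library (columns) and by region (rows, named by gene and distance from its start). Grey cells hold no peak. The Klf4 +31 kb row is empty in all 6 tamoxifen and 24 h ICRF-193 columns, and the Klf4 +57 kb row is empty in both 24 h ICRF-193 columns and in DMSO 1 h replicate 2.

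A Klf4 site 31 kb downstream was lost in a pair of comparisons. The region chr4:55513582-55514242 held no peak in either Brg1 tamoxifen list, and peaks at list percentiles of 80.5 and 37.1 in the Brg1 ethanol lists. It held no peak in either 24 h ICRF-193 list, and peaks at 73.5 and 73.0 in the 24 h DMSO lists. In the Baf53a line it held no peak in either tamoxifen list, and a peak at 39.8 in ethanol replicate 1 but none in ethanol replicate 2, so that it did not count as lost there. After 1 h it held a peak in all 3 ICRF-193 lists, at 58.3, 69.7 and 49.3, and in 2 of 3 DMSO lists, at 66.8 and 52.2.

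List length was set beside these absences. The site was missing from tamoxifen and 24 h ICRF-193 lists of 46431 to 98440 peaks. It was present in a list of only 50611 peaks, that of ICRF-193 replicate 2 at 1 h, and missing from the DMSO list of 58532 peaks at 1 h. When each list was cut to its 46431 best peaks, the site was still lost after 24 h of ICRF-193. It no longer counted as lost after Brg1 deletion, because the peak of ethanol replicate 2, at percentile 37.1, was itself removed by that limit. The part played by list length in the Brg1 result was not tested further.

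The other losses after 24 h of ICRF-193 were at 57 and 88 kb from Klf4 and 23 kb upstream of Klf2. The Klf4 region at 57 kb, chr4:55488222-55488663, held no peak in either 24 h ICRF-193 list, and peaks at list percentiles of 76.7 and 53.1 in the 24 h DMSO lists. It was present in all 8 lists of the Brg1 and Baf53a lines, including the shortest list of all, and in all 3 ICRF-193 lists and 2 of 3 DMSO lists of 1 h. Absence of this site was thus seen in 3 lists, and both 24 h ICRF-193 lists were among them. The region at 88 kb, chr4:55456511-55457005, was weaker, with 18.6 and 39.9 in the 24 h DMSO lists and no peak in the 24 h ICRF-193 lists. It was also missing from all 4 Baf53a lists. The Klf2 region, chr8:74819495-74819923, was near the lower end of the lists, at 24.0 and 19.5 in the 24 h DMSO lists, and was found in 6 lists in all. When each list was cut to its 46431 best peaks, none of the regions at 57 kb, 88 kb and 23 kb counted as lost. That limit itself removed their peaks in DMSO replicate 2 of 24 h (percentiles 53.1, 39.9 and 19.5). The cut lists therefore could not show whether these regions were lost.

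For Brg1 deletion the other lost site was weak. The region chr4:55493908-55494204, at 51 kb, held no peak in the tamoxifen lists, and peaks at 22.7 and 41.3 in the ethanol lists. Across the series it held a peak in only 6 lists. When an overlap of at least 100 bp was required to merge peaks, it no longer counted as lost.

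Gains were fewer. For Brg1 deletion 1 of 11 regions shared by the tamoxifen lists was gained, against 4.97% of all such regions. It was chr4:55535032-55535464, 10 kb downstream of the Klf4 start, with list percentiles of 9.2 and 33.5 in the tamoxifen lists and no peak in the ethanol lists. The same region held a peak in 4 wild-type lists, those of DMSO replicate 2 at 24 h, ICRF-193 replicate 3 at 1 h, and DMSO replicates 1 and 3 at 1 h. No region was gained for Baf53a deletion (0 of 10, against 5.49%), for ICRF-193 at 24 h (0 of 10, against 5.46%) or at 1 h (0 of 12, against 0.375%).

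The single libraries bore on these counts. Without tamoxifen replicate 2 of the Brg1 line, 2 of 12 regions were lost, against 26.2% of all control-shared regions, and 5 of 18 were gained, against 30.8%. Without ethanol replicate 2 of the Baf53a line, 4 of 16 regions were lost there, against 35% of all such regions, where 0 were lost with both ethanol lists. Without DMSO replicate 1 of the 24 h group, 7 of 16 regions were lost after ICRF-193, against 42.8%. The counts over all regions grew too, since a region then needs a peak in fewer lists.

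Summed over a window, open chromatin at Klf4 was lower in both 24 h ICRF-193 lists. The bases under peaks in the Klf4 window were 3367 and 2600 after 24 h of ICRF-193, against 4480 and 4723 after 24 h of DMSO, a ratio of means of 0.648. The groups did not overlap. The lists differed in length, with 98440 and 76898 peaks for ICRF-193, against 98166 and 127030 for DMSO, and the bases under all peaks of the lists had a ratio of 0.756. With lists of equal length (46431 peaks) the Klf4 ratio was 0.823. In the Brg1 line the sums were 4387 and 2104 with tamoxifen, against 4711 and 3575 with ethanol, a ratio of 0.783 between groups that overlapped, beside 0.672 for the whole lists. Without the tamoxifen list of 46431 peaks the Klf4 ratio was 1.06, and without the other tamoxifen list it was 0.508.

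In the Baf53a line the Klf4 sums were 3724 and 3118 with tamoxifen, against 4701 and 3677 with ethanol, a ratio of 0.817 beside 0.872 for the whole lists. After 1 h they were 4337, 2670 and 5069 with ICRF-193, against 4359, 2869 and 5570 with DMSO, a ratio of 0.944 beside 0.798 for the whole lists. Groups overlapped in both comparisons. By group mean the Klf4 sums ran from 2983.5 ± 542 bases after 24 h of ICRF-193 (n = 2) to 4601.5 ± 172 after 24 h of DMSO (SD, n = 2). The other 6 groups lay between them with SDs of 429 to 1614, and neighbours in that order did not differ beyond their spread.

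**Figure D4:**
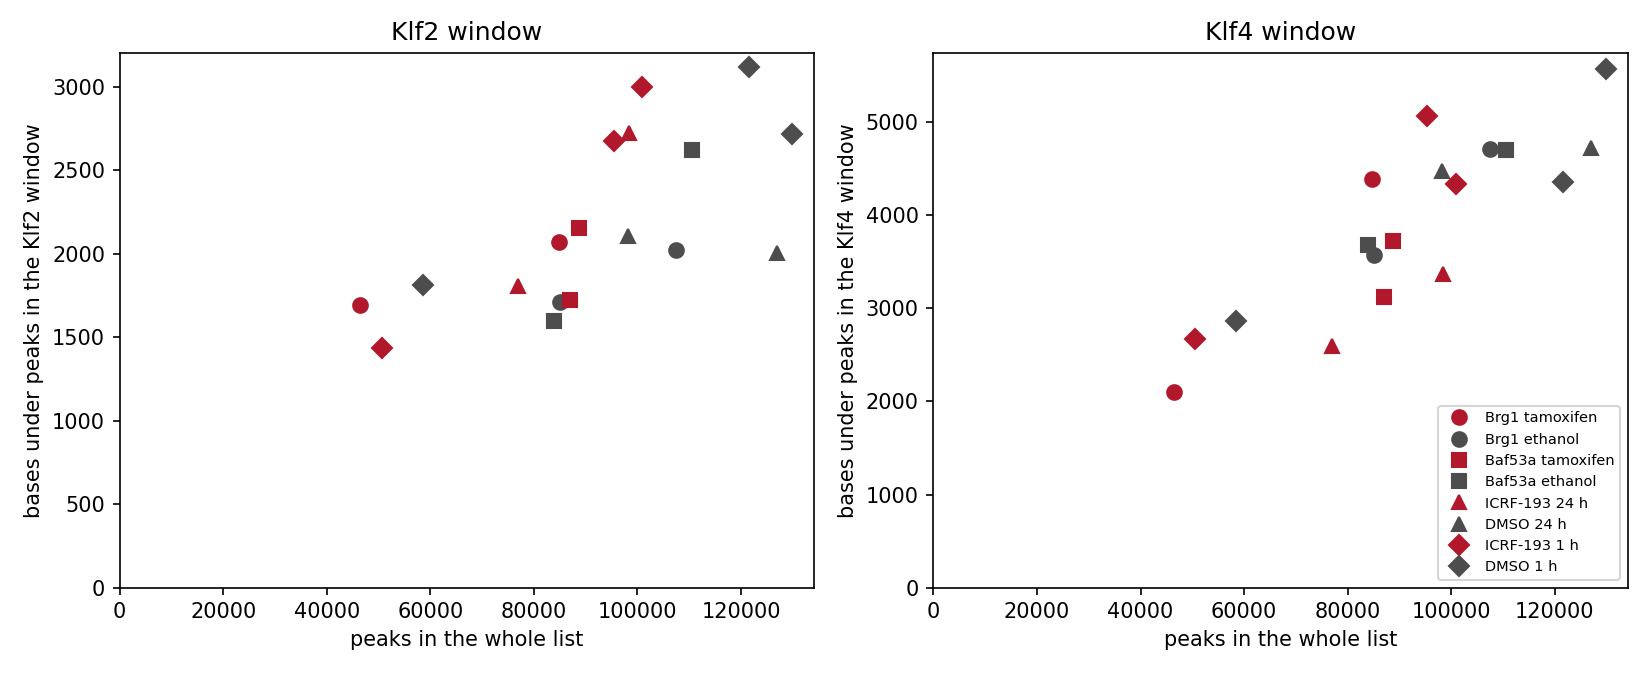
Bases under peaks in the Klf2 window (left) and the Klf4 window (right) against the number of peaks in the whole list (x axis). Each point is a library, red for tamoxifen or ICRF-193 and grey for ethanol or DMSO, with a shape for each experiment. The red triangles (ICRF-193, 24 h) of the Klf4 panel lie at 3367 and 2600 bases, below the grey triangles (DMSO, 24 h) at 4480 and 4723.

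The Klf2 window showed no such gap. The bases under peaks were 2725 and 1808 after 24 h of ICRF-193, against 2107 and 2003 after 24 h of DMSO, a ratio of means of 1.10. They were 2068 and 1690 in Brg1 tamoxifen cells, against 2022 and 1709 in Brg1 ethanol cells, a ratio of 1.01. The ratio was 0.919 for Baf53a deletion and 0.929 for ICRF-193 at 1 h. Groups overlapped in all 4 comparisons.

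Sites of one locus did not share a common profile over the libraries. Spearman correlations of the normal scores between stable sites of one window, over the 18 libraries, ranged from -0.44 to 0.46. The lowest was between the 17 kb and 68 kb sites of Klf4, and the highest between the 54 kb and 68 kb sites. These are descriptions only, since the libraries share cell lines and differ in list length. Outside the windows, the profiles most like that of the Klf2 start were at chr8:74684521-74685762 (0.818) and chr4:132925391-132926166 (0.816). Those most like the 17 kb site of Klf4 were at chr4:6519893-6520674 (0.851) and chr4:142829471-142829908 (0.843), again over 18 libraries.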

How the data were processed

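ATAC-seq of 18 mouse ES cell samples was deposited as 1 peak list per sample, called per sample. Per the submitters' processing notes the build was mm9, and Bowtie 0.12.9, MACS2 and edgeR 3.12.1 are named without role or order. How reads were shifted, filtered and called is not given in the sources used here. Peak positions (other values of the deposited files) are printed counted from 1. The score in column 5 is the authors' own, without a unit in the deposited files, and was used only to rank peaks.

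Peaks sharing 1 bp or more were merged over all lists, with bedtools 2.31.1 as a check. Of a region's peaks in a list, the best score was used. Ranks among the 18061 regions with a peak in all 18 lists were turned into normal scores and modelled over all 18 libraries (limma 3.58.1, R 4.3.3; a term for each group, variance trend, Benjamini-Hochberg over all 18061, called at an adjusted p under 0.05). The fit was tested on simulated data. Single regions were also compared by two-sided exact permutation tests. Python 3.11.15, numpy 2.4.6, pandas 2.3.3, scipy 1.17.1 and matplotlib 3.10.9 did the rest.

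No read counts were used, so no counting error can be given. The windows and lists were chosen with earlier results of these data known. Regions named with values were those within 2 kb of a gene, the stable regions with the highest ranks, and those lost or gained in a comparison. For the top region of each window, the 2 regions with the highest Spearman correlation over the libraries were named. The region 8 kb upstream of Klf2 was added after its values were seen. Pathway genes and cell type markers were not set beside the members, for want of an mm9 annotation.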

Additional observations from a re-analysis of the deposited data

How the results depend on the processing

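None of the 8 stable Klf2 and Klf4 regions was called in any of their 596 alternative fits, where the smallest limma adjusted p was 0.1014. With equal numbers of peaks only 6 of the 8 could be fitted, without the Klf4 start and +52 kb sites. The differences at Klf4 +17 kb for Brg1 deletion (-1.41 to -0.69 in normal scores, adjusted p 0.1132 to 0.5871), at Klf4 +68 kb for ICRF-193 at 24 h (-1.80 to -1.16, 0.1014 to 0.5973) and at Klf2 -3 kb for ICRF-193 at 24 h (-1.30 to -0.70, 0.4164 to 0.8515) kept their direction in 11 of 11 alternatives each. The kept direction is not support, since these differences were picked by their unadjusted p in the same data. In each, both perturbed libraries lay below both controls, so that leaving out 1 library could not reverse the direction. The replicate block left the size of each difference as it was. Counts over all regions moved more, for causes that were not tested. Regions called for Brg1 deletion were 406 with list length as a covariate. For Baf53a deletion they were 6 with equal numbers of peaks, 0 with the mean score of a region's peaks, 3 with rank as a percentile, 2 with list length as a covariate and 0 with the regions in every list of the contrast. For ICRF-193 at 24 h they were 4 with the mean score, 9 with rank as a percentile, 8 with list length as a covariate and 53 with the regions in every list of the contrast. With the mean score, the Brg1 minus Baf53a difference had 2 and the 24 h minus 1 h difference 0.

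With lists cut to equal numbers of peaks, 1 region of the Klf windows was lost for Brg1 deletion (Klf2 -8 kb; 1 of 9, against 18.9% of all control-shared regions), 0 of 10 were gained (against 9.42%), and 1 of 7 was lost for ICRF-193 at 24 h (Klf4 +31 kb; against 10.7%). With 100 bp of overlap 1 of 11 was lost for Brg1 deletion (Klf4 +31 kb; against 23.5%). Leaving out 1 library at a time gave 1 to 5 gained for Brg1 deletion (9.09% to 27.8%, against 8.95% to 30.8% over all regions). For Baf53a deletion it gave 0 to 4 lost (0% to 25%, against 18.1% to 35%) and 0 to 3 gained (0% to 21.4%, against 8.05% to 31%). For 24 h of ICRF-193 it gave 4 to 7 lost (30.8% to 43.8%, against 21.7% to 42.8%) and 0 to 3 gained (0% to 20%, against 8.93% to 27.7%). For 1 h it gave 0 to 1 lost (0% to 8.33%, against 2.73% to 11.1%). It gave 216 to 688 called regions for Brg1 deletion, 0 to 49 for Baf53a deletion, 0 to 26 for ICRF-193 at 24 h, 4 to 177 for the Brg1 minus Baf53a difference and 0 to 1 for the 24 h minus 1 h difference. With 1 library in a group, limma takes its spread from the other groups. Of 44 alternative window ratios of bases under peaks, 43 stayed within 1 SD of the main value. That SD was the larger relative SD of the groups compared. The exception was Klf4 after 24 h of ICRF-193 with equal numbers of peaks, given above. Most alternatives left out 1 library, which can hardly move a mean of 2 or 3 libraries beyond their SD. The number within 1 SD therefore does not show that the ratios are stable. For Brg1 deletion, Klf4 ratios of 0.508 and 1.06 both counted as within it.

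Libraries with the same replicate number were weakly and positively correlated, and the main fit did not pair them. Correlations of same-numbered deviations were 0.068 for the Brg1 line, 0.118 for the Baf53a line, 0.034 at 24 h and 0.061 to 0.127 at 1 h, where each library correlated best with its own number. With the replicate number as a block, 865 regions were called for Brg1 deletion, 23 for Baf53a deletion, 72 for 24 h of ICRF-193, 0 for 1 h, 98 for the Brg1 minus Baf53a difference and 1 for the 24 h minus 1 h difference, and no Klf2 or Klf4 region among them.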
